A study of Mus musculus with 16 samples.

Results

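Corticosterone, the main glucocorticoid of mice, acts on the hippocampus through 2 nuclear receptors, the mineralocorticoid receptor encoded by Nr3c2 and the glucocorticoid receptor encoded by Nr3c1. The described set held these receptors and 7 genes of glucocorticoid action and stress, namely Fkbp5, Sgk1, Tsc22d3, Hsd11b1, Crhr1, Errfi1 and Ndrg1. They were chosen by gene symbol, and all 9 were found among the 17986 genes listed in both blocks (exploration and home cage) of the deposited table. The choice was made with earlier FPKM results of the same libraries known, so their levels and differences are given as a description and support nothing by themselves. All 9 genes passed the filter on low values, each through every one of the 10 libraries.

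In a resting cell the glucocorticoid receptor is held by heat shock proteins and immunophilins. After binding hormone it moves to the nucleus, where it binds glucocorticoid response elements as a dimer and changes transcription. The mineralocorticoid receptor has the higher affinity for corticosterone and is abundant in hippocampal neurons. Target genes such as Fkbp5, Sgk1 and Tsc22d3 are widely used as readouts of glucocorticoid exposure, and Fkbp5 feeds back on the receptor.

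Bulk RNA had been sequenced from CA1, a field of the hippocampus, of male C57Bl6-background mice, 3 to 6 months old. The groups were wild type mice in the home cage (2 libraries), mice labelled as deficient in Neil3, a DNA glycosylase of base excision repair, in the home cage (2 libraries), and mice with each of these labels after spatial exploration (3 libraries each). Home cage mice had no intervention. Exploration mice had spent 20 min per day for 1 week in an open arena with sides of 50 cm that held cues and food, with the last session ending 20 min before they were killed. All brains were frozen without perfusion and cut at 8 µm, and CA1 was taken by laser dissection. A further 6 samples, named as a learning condition, were not analysed here. The labels do not say which cells or promoter the Neil3 deficiency involves.

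Neil3 itself (gene ID 234258, chromosome 8, 53586867 to 53639065) had the higher FPKM in the libraries labelled as deficient. It was listed at 0 FPKM in 4 of the 5 libraries labelled wild type and at 0.05 FPKM in the other one, and at 13.77 and 15.22 FPKM in the home cage libraries and 15.13, 11.85 and 8.35 FPKM in the exploration libraries labelled as deficient. Whether the labels are swapped or the deficient mice still make a Neil3 transcript was not tested. The groups are therefore called WT-labelled and KO-labelled throughout, and each direction between them rests on the labels as deposited. The depth, estimated from the spacing of low FPKM values, was 17500000 to 18700000 fragments per library, and 11114 to 11623 genes reached 1 FPKM. At this depth the fewest fragments behind a value of the 9 genes were about 123 (Hsd11b1), a counting error of 9.03%. CA1 pyramidal markers summed to 826.7 to 1205.9 FPKM and dentate granule markers to 0.5 to 1.0 FPKM. Astrocyte markers summed to 83.6 to 148.9 FPKM and oligodendrocyte markers to 153.4 to 397.6 FPKM, so that the tissue also held glial RNA. In such bulk samples, fewer cells of a type and less RNA per cell cannot be told apart. The choroid plexus gene list stood apart in WT-labelled home cage library 1 (234.6 FPKM) and WT-labelled exploration libraries 1 and 2 (131.0 and 107.7 FPKM), against 9.4 to 17.8 FPKM elsewhere. Home cage and exploration values stand in separate blocks of the deposited table, so environment and block cannot be told apart.

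FPKM are scaled to transcript length, so levels can be set beside each other. The mean FPKM over the 10 libraries was 38.56 for Nr3c2, 25.11 for Nr3c1, 22.09 for Errfi1, 19.04 for Sgk1, 17.22 for Tsc22d3, 15.32 for Fkbp5, 13.51 for Ndrg1, 9.43 for Crhr1 and 9.08 for Hsd11b1. Among neighbours in this order, only Nr3c2 and Nr3c1 had ranges over the libraries that did not meet. Every other pair of neighbours overlapped. The spread between libraries also differed between the genes. The highest value was 1.19 times the lowest for Nr3c1, between 1.38 and 1.6 times for Nr3c2, Errfi1, Sgk1, Tsc22d3, Fkbp5 and Crhr1, 2.96 times for Hsd11b1 and 16.7 times for Ndrg1.

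**Figure D1:**
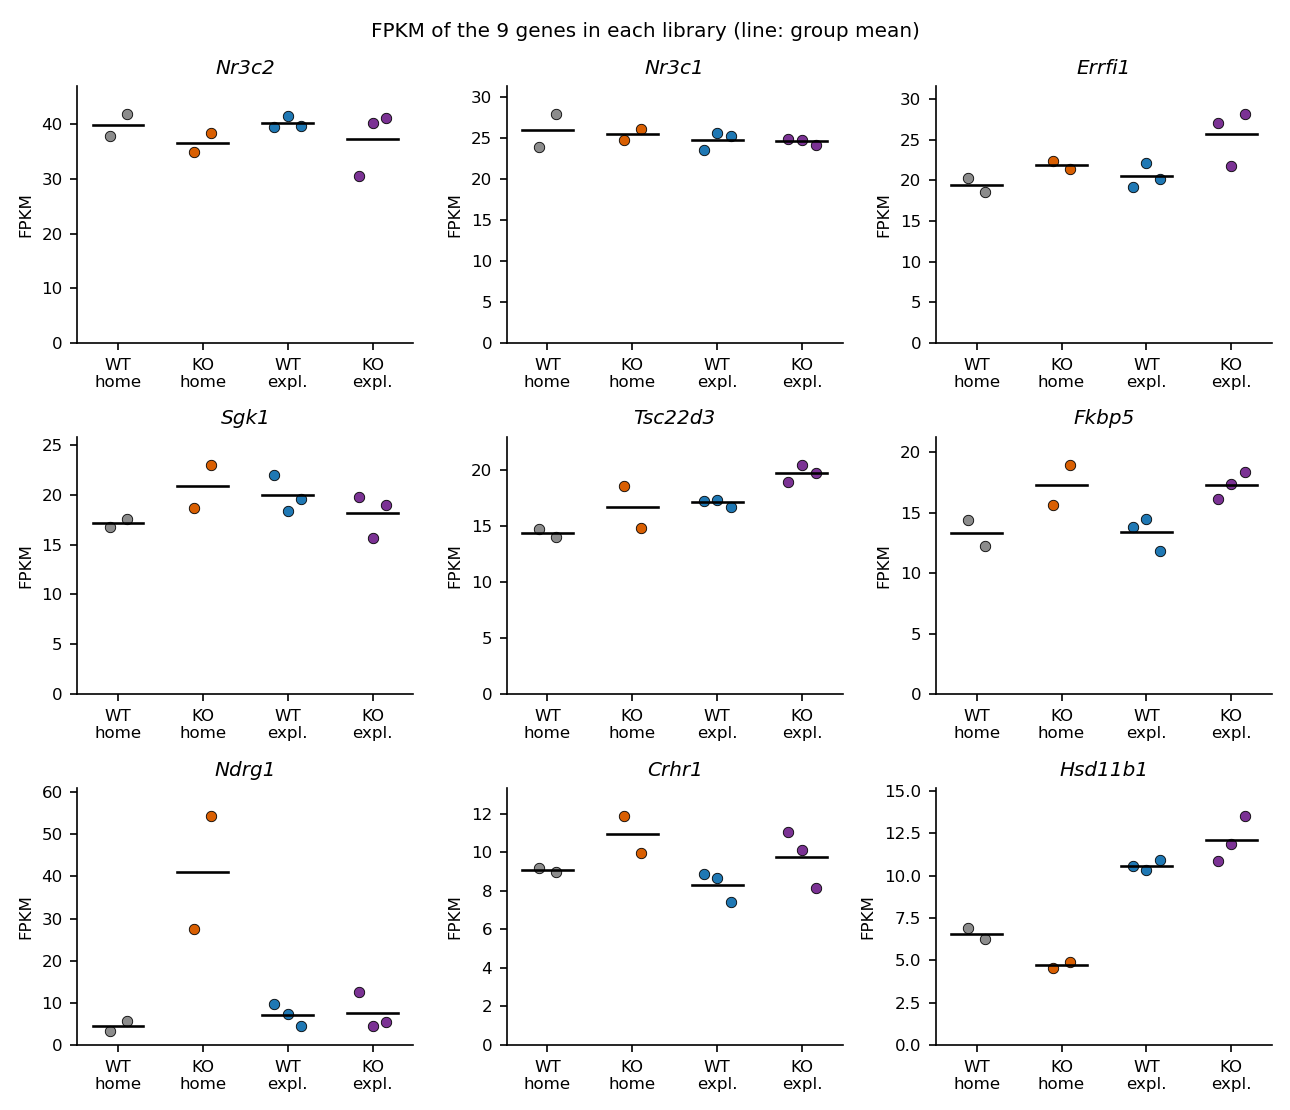
FPKM (vertical axis, from 0) of each of the 9 genes in the WT-labelled and KO-labelled home cage and exploration libraries; points are libraries and lines group means. Nr3c1 stays between 23.51 and 28.0 FPKM, Ndrg1 reaches 27.44 and 54.45 FPKM in the KO-labelled home cage libraries alone, and all exploration values of Hsd11b1 lie above all its home cage values.

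Neither receptor gene was called in any comparison. Nr3c1 (gene ID 14815) had 23.97 and 28.0 FPKM in the WT-labelled and 24.74 and 26.15 FPKM in the KO-labelled home cage libraries. After exploration it had 23.51, 25.64 and 25.23 FPKM in the WT-labelled and 24.9, 24.81 and 24.14 FPKM in the KO-labelled libraries. Its 4 group means lay between 24.62 and 25.98 FPKM, which is closer together than the 2 WT-labelled home cage libraries. Of all 11892 tested genes, 3.05% had a smaller SD over the 10 libraries on the log2(FPKM + 1) scale. With the 2 environments averaged, the log2 difference of KO-labelled from WT-labelled libraries was -0.02 with a 95% interval of -0.14 to 0.11, which bounds what these libraries could show.

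Nr3c2 (gene ID 110784, chromosome 8, 76898083 to 77245012) lies on the chromosome of Neil3. It had 37.88 and 41.95 FPKM in the WT-labelled and 34.99 and 38.32 FPKM in the KO-labelled home cage libraries. The exploration values were 39.58, 41.43 and 39.69 FPKM with the WT label and 30.49, 40.14 and 41.12 FPKM with the KO label. KO-labelled exploration library 1 was the lowest of all, and the groups overlapped in both environments. The log2 difference between labels was -0.12 in each environment (SE 0.13 in the home cage and 0.10 after exploration), and the exploration change was 0.01 with either label (SE 0.11). The ratio of Nr3c2 to Nr3c1 within a library was 1.54 ± 0.14 (SD, n = 10) and ran from 1.22 in KO-labelled exploration library 1 to 1.70 in KO-labelled exploration library 3, so that the mineralocorticoid receptor transcript was the more abundant in all 10 libraries.

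Fkbp5 (gene ID 14229, chromosome 17, 28398753 to 28486149) encodes an immunophilin that joins the receptor complex, lowers its affinity for hormone and is itself induced by the receptor. It had 14.41 and 12.25 FPKM in the WT-labelled and 15.62 and 18.97 FPKM in the KO-labelled home cage libraries. After exploration the values were 13.78, 14.5 and 11.84 FPKM with the WT label and 16.11, 17.37 and 18.38 FPKM with the KO label. All 5 KO-labelled libraries lay above all 5 WT-labelled ones, and no other gene of the 9 did this. Over all tested genes, 0.933% did so. The log2 difference was 0.35 in the home cage (SE 0.12) and 0.35 after exploration (SE 0.10), and neither was called by limma at an adjusted p under 0.05. Averaged over the environments, a comparison added after the values were seen, it was 0.35 (SE 0.08, 95% interval 0.17 to 0.53) and was called. That call held in 2 of the 10 fits that leave out a library, those without library 1 of the KO-labelled home cage or exploration group. Without each other library the difference was between 0.28 (home cage library 2 of the KO label left out) and 0.40 (home cage library 1 of the WT label left out) and was not called, nor was it with a pseudocount of 0.1 (0.37), with no filter or with no variance trend (0.35 each). The home cage and exploration means were 13.33 ± 1.53 (SD, n = 2) and 13.37 ± 1.38 FPKM (SD, n = 3) with the WT label and 17.29 ± 2.37 (SD, n = 2) and 17.29 ± 1.14 FPKM (SD, n = 3) with the KO label.

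Tsc22d3 (gene ID 14605, chromosome X, 140539528 to 140600522) encodes GILZ, a leucine zipper protein that mediates anti-inflammatory actions of glucocorticoids. It had 14.69 and 13.97 FPKM in the WT-labelled and 18.55 and 14.77 FPKM in the KO-labelled home cage libraries. After exploration it had 17.23, 17.32 and 16.66 FPKM with the WT label and 18.9, 20.45 and 19.68 FPKM with the KO label. The exploration libraries of each label lay above the home cage libraries of that label. The share of all tested genes that did so was not counted. KO-labelled home cage library 1 lay above all 3 WT-labelled exploration libraries. The log2 difference between labels was 0.20 in the home cage (SE 0.10) and 0.19 after exploration (SE 0.08). Averaged over the environments it was 0.20 (SE 0.07), and none of these was called. The exploration difference was 0.24 in log2 with either label (SE 0.09), below the call threshold in both. Averaged over the labels it was 0.24 (SE 0.07) and was called, but not without home cage library 2 of the WT label (0.22) or of the KO label (0.16). In the KO-labelled libraries it passed the threshold when the values were scaled by size factors (0.30) or when home cage library 1 of that label was left out (0.39), and in the WT-labelled libraries it passed when only those 2 groups were fitted (0.24).

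Astrocytes are among the cells that respond to glucocorticoids, so their markers are given beside these genes. The 7 astrocyte markers summed to 83.6 and 89.7 FPKM in the WT-labelled and 124.3 and 148.9 FPKM in the KO-labelled home cage libraries. After exploration the sums were 125.6, 125.8 and 97.7 FPKM with the WT label and 130.8, 143.4 and 137.1 FPKM with the KO label. Within each environment all KO-labelled sums lay above all WT-labelled ones, and WT-labelled exploration libraries 1 and 2 lay slightly above KO-labelled home cage library 1. None of the 7 markers was listed at 0. Of these markers, Gfap (log2 change 1.24) and Aqp4 (0.64) were called higher with the KO label in the home cage, and 0 of 7 were called by limma between the labels after exploration, with 3 at an unadjusted p under 0.05. With exploration 3 of the 7 were called higher with the WT label (median log2 change 0.32), where Fkbp5 changed by 0.00 and Tsc22d3 by 0.24. With the KO label 1 of the 7 was called higher (median -0.06), where these changes were again 0.00 and 0.24. The part of astrocyte RNA in the levels of Fkbp5 and Tsc22d3 was not tested.

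**Figure D2:**
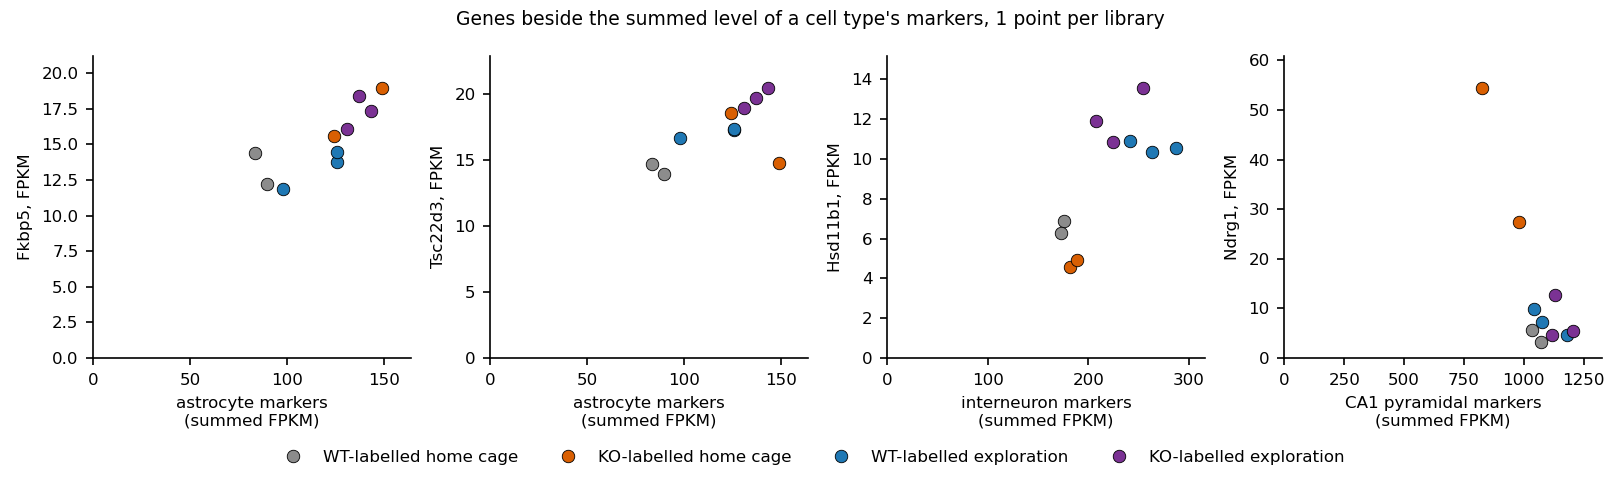
Fkbp5 and Tsc22d3 (FPKM) against summed astrocyte markers, Hsd11b1 against summed interneuron markers and Ndrg1 against summed CA1 pyramidal markers (all axes from 0), 1 point per library coloured by group. The KO-labelled libraries, with 124.3 to 148.9 FPKM of astrocyte markers, hold the 5 highest values of Fkbp5. WT-labelled exploration libraries 1 and 2, at 125.6 and 125.8 FPKM of these markers, have Fkbp5 at 13.78 and 14.5 FPKM. The 2 libraries with the most Ndrg1 hold the lowest CA1 marker sums.

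Sgk1 (gene ID 20393, chromosome 10, 21882184 to 21999903) encodes a kinase of ion transport and cell survival whose gene is induced within a short time of receptor activation. Errfi1 (gene ID 74155, chromosome 4, 150853796 to 150868889) encodes MIG6, a feedback inhibitor of the epidermal growth factor receptor family. Promoter windows of 300 bases, 250 before and 50 after the start of a transcript, were searched in the RefSeq table of build GRCm38.p6, which holds 15 windows for 7 of the 9 genes. In all, 4 motifs were searched on both strands. The full glucocorticoid response element was written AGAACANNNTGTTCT and was in 0.00913% of all 32851 promoters, 3 windows in all. The 6 windows of Sgk1 include 1 of these 3, with the match at bases -189 to -175 from the start. The cyclic AMP response element TGACGTCA was in 1.79% of promoters, and in that of Errfi1 at bases -51 to -44. The bases before the start are shown for these windows, on the plus strand, with the matched letters in capitals, because they hold the receptor's own motif and that of the activity-regulated factor CREB.
Sgk1, chr10:21993640-21993889: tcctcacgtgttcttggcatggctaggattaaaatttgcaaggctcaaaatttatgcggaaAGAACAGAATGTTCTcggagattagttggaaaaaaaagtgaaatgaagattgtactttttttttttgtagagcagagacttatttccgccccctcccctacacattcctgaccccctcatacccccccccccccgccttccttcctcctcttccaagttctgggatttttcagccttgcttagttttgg
Errfi1, chr4:150854820-150855069: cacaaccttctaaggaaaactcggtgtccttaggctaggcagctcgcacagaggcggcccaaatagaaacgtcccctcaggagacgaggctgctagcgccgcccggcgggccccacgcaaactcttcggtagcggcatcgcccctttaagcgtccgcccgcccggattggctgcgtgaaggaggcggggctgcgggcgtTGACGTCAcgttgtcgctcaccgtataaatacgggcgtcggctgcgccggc

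The shorter motifs were common. The single site AGAACA of the response element was in 19.0% of promoters and the hypoxia core ACGTG in 19.6%. A single site lay in 3 of the Sgk1 windows (in the third, 2 of its 3 sites lie inside the full element) and in that of Tsc22d3 at bases -185 to -180, and the core lay in those of Fkbp5, Errfi1 (overlapping the cyclic AMP element) and Sgk1. The windows of Nr3c2, Crhr1 and Hsd11b1 held none of these letters. A match is a description of the letters and not a bound site.

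Taken over both labels, the values of Sgk1, the gene with the full element, did not separate by environment. With the WT label the exploration values lay above the home cage values, and with the KO label the groups overlapped. How often genes separate within a label was not counted over all tested genes. It had 16.8 and 17.61 FPKM in the WT-labelled and 18.64 and 23.04 FPKM in the KO-labelled home cage libraries, and 21.95, 18.36 and 19.59 FPKM and 19.76, 15.71 and 18.96 FPKM after exploration. KO-labelled home cage library 2 was the highest and KO-labelled exploration library 2 the lowest. The log2 change with exploration was 0.20 with the WT label and -0.19 with the KO label (SE 0.12 each). The difference between these changes was -0.39 (95% interval -0.75 to -0.03) and was not called over all genes.

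Errfi1 had 20.33 and 18.55 FPKM in the WT-labelled and 22.33 and 21.36 FPKM in the KO-labelled home cage libraries. After exploration it had 19.14, 22.08 and 20.19 FPKM with the WT label and 27.07, 21.7 and 28.19 FPKM with the KO label. KO-labelled exploration libraries 1 and 3 were the highest of the 10, while library 2 of that group lay among the WT-labelled values. The log2 difference between labels after exploration was 0.31 (SE 0.10), and the exploration change with the KO label was 0.21 (SE 0.11). Neither was called, and without KO-labelled exploration library 2 the exploration change was 0.33 and passed the threshold.

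Crhr1 (gene ID 12921, chromosome 11, 104130463 to 104175523) encodes the receptor for corticotropin-releasing hormone, which sets the stress axis in motion and also acts as a transmitter in the hippocampus. It had 9.18 and 8.97 FPKM in the WT-labelled and 11.9 and 9.94 FPKM in the KO-labelled home cage libraries. After exploration the values were 8.88, 8.64 and 7.43 FPKM with the WT label and 11.07, 10.12 and 8.13 FPKM with the KO label. Between the labels the log2 difference was 0.24 (SE 0.14, 95% interval -0.07 to 0.54) in the home cage and 0.20 (SE 0.11) after exploration. Neither was called.

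Hsd11b1 (gene ID 15483, chromosome 1, 193221640 to 193264045) encodes the enzyme that regenerates active corticosterone from its inert 11-keto form inside cells. It had 6.89 and 6.28 FPKM in the WT-labelled and 4.58 and 4.93 FPKM in the KO-labelled home cage libraries. After exploration it had 10.55, 10.35 and 10.91 FPKM with the WT label and 10.86, 11.9 and 13.56 FPKM with the KO label. All 6 exploration libraries lay above all 4 home cage libraries, and no other gene of the 9 did this, where 6.49% of all tested genes did. Its mean after exploration was 1.61 times that in the home cage with the WT label and 2.55 times with the KO label. In log2(FPKM + 1) the changes were 0.61 (SE 0.10) and 1.18 (SE 0.10), both called. The call with the WT label was lost without WT-labelled home cage library 2 (0.56), and that with the KO label held in all 10 fits that leave out a library. In the home cage the KO-labelled libraries lay below the WT-labelled ones by 0.40 in log2 (SE 0.11), which was not called with all libraries but was without KO-labelled exploration library 1 or 3, at the same value. The difference between the exploration changes was 0.57 (SE 0.14, 95% interval 0.26 to 0.88), was not called with all libraries and was without KO-labelled exploration library 1 (0.64).

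Several marker sums also differed between the environments. The 6 interneuron markers summed to 172.6 to 188.8 FPKM in the home cage and 207.8 to 287.4 FPKM in the exploration libraries, with none listed at 0. Of these, Sst was called with the WT label (log2 change 1.02) and Pvalb with the KO label (0.76), and the other 5 of the 6 were not called with that label. The 11 oligodendrocyte markers summed to 153.4 to 246.5 FPKM in the home cage and 218.5 to 397.6 FPKM after exploration, with 6 of 11 called higher with the WT label (median 0.58) and 0 of 11 by limma with the KO label (median 0.21, 2 at an unadjusted p under 0.05). The 5 blood genes summed to 94.9 to 154.1 FPKM in the home cage and 160.0 to 308.1 FPKM after exploration in these unperfused brains. The 3 CA3 markers summed to 11.4 and 14.9 FPKM in the KO-labelled home cage and 35.0 to 48.9 FPKM in the KO-labelled exploration libraries, and the 3 CA2 markers to 105.1 and 105.5 FPKM and 149.2 to 248.0 FPKM. Within these lists, with exploration in the KO-labelled libraries, Bok (log2 change 2.39) and Cpne4 (2.24) of CA3 and Pcp4 (3.18) and Amigo2 (2.22) of CA2 were called higher, Grik4 of CA3 was called lower (-0.90), and Rgs14 of CA2 was not called (0.18). With the WT label, the CA3 and CA2 sums after exploration were 21.4 to 31.0 and 169.3 to 180.4 FPKM. Home cage library 1 of that label lay above these, at 32.3 and 227.5 FPKM, with Hsd11b1 at 6.89 FPKM. Its home cage library 2 lay below them, at 10.9 and 114.6 FPKM, with Hsd11b1 at 6.28 FPKM. The part of these cells in the Hsd11b1 values was not tested.

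Ndrg1 (gene ID 17988, chromosome 15, 66929318 to 66969641) encodes a stress-responsive protein that SGK1 phosphorylates, and in the brain it is known from oligodendrocytes. It had 3.27 and 5.61 FPKM in the WT-labelled and 27.44 and 54.45 FPKM in the KO-labelled home cage libraries. After exploration it had 9.82, 7.29 and 4.58 FPKM with the WT label and 12.64, 4.6 and 5.36 FPKM with the KO label. The 2 KO-labelled home cage libraries stood above the other 8, which ran from 3.27 to 12.64 FPKM, and differed from each other by a wide margin. The home cage means were 4.44 ± 1.65 and 40.94 ± 19.1 FPKM (SD, n = 2 each). Between these groups Ndrg1 differed by 2.90 in log2(FPKM + 1) (SE 0.43). From home cage to exploration it changed by 0.58 (SE 0.39) with the WT label and by -2.34 (SE 0.39) with the KO label, and the second was called. After exploration the labels differed by -0.01 (SE 0.35). Of all tested genes, 99.8% had a smaller SD over the 10 libraries.

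The Ndrg1 calls rested on few libraries. In the home cage the difference was not called without library 1 of the WT-labelled home cage (2.59) or library 2 of the KO-labelled home cage (2.42), or with no filter on low values (2.90). With the KO label the exploration change was not called in the fit that leaves out the second KO-labelled home cage library (-1.86). The difference between the 2 exploration changes was -2.92 (SE 0.56), and its call was lost without home cage library 1 of the WT label (-2.60), home cage library 2 of the KO label (-2.43), WT-labelled exploration library 1 or 2 (-2.69 and -2.89) or KO-labelled exploration library 2 or 3 (-2.67 and -2.76). It was also lost with a pseudocount of 0.1 (-3.17), with no filter and with no variance trend (-2.92 each). Averaged over the environments the labels differed by 1.44 (SE 0.28), which was not called without either WT-labelled home cage library (1.29 and 1.60), the KO-labelled home cage library 2 (1.20) or WT-labelled exploration library 3 (1.32). Averaged over the labels the environments differed by -0.88 (SE 0.28), which was not called without home cage library 2 of the WT or KO label (-0.72 and -0.64), WT-labelled exploration library 3 (-0.75) or KO-labelled exploration library 2 or 3 (-0.76 and -0.80). Neither averaged value was called with no filter. Beside these values, CA1 pyramidal markers summed to 978.0 and 826.7 FPKM in the KO-labelled home cage libraries and to 1033.9 to 1205.9 FPKM in the other 8, and Wfs1 of that list was called lower there (log2 change -1.17). The part of this in the Ndrg1 values was not tested. The 11 oligodendrocyte markers, none listed at 0, summed to 209.4 and 246.5 FPKM in the same libraries and to 181.1 and 153.4 FPKM in the WT-labelled home cage, a median log2 difference of 0.34 with 0 of 11 called by limma and 3 at an unadjusted p under 0.05. In the exploration libraries they summed to 218.5 to 397.6 FPKM, with Ndrg1 at 4.58 to 12.64 FPKM. Their part in the Ndrg1 values was not tested.

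**Figure D3:**
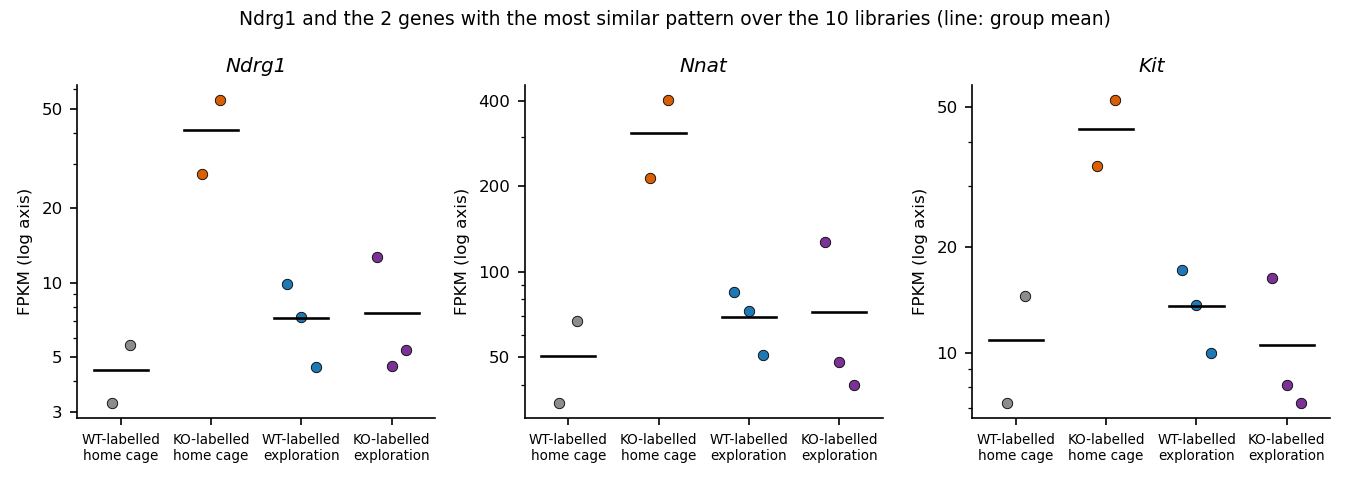
FPKM (log axis) of Ndrg1, Nnat and Kit in each library, by group; points are libraries and lines group means. In all 3 genes the 2 KO-labelled home cage libraries are the highest of the 10, and KO-labelled exploration library 1 is the highest of its group.

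The genes with the most similar pattern to each of the 9, among 8235 others with a mean of at least 5 FPKM, were found by the root mean square difference in centred log2(FPKM + 1) over the 10 libraries. For Ndrg1 these were Nnat (0.19), an imprinted membrane protein gene, and Kit (0.369), a receptor tyrosine kinase gene. Nnat had 34.46 and 66.96 FPKM in the WT-labelled and 214.66 and 404.6 FPKM in the KO-labelled home cage libraries, and 40.0 to 127.88 FPKM after exploration. The order of the libraries within each group was the same in Nnat as in Ndrg1 except for the KO-labelled exploration libraries 2 and 3. For Hsd11b1 the nearest genes were Car2 (0.163), a carbonic anhydrase with group means of 43.51 and 33.86 FPKM in the home cage and 55.55 and 76.05 FPKM after exploration (WT label first), and Rgs10 (0.181). Those of Fkbp5 were Golm1 (0.085) and the glycolytic regulator Pfkfb3 (0.088). Tsc22d3 had Rell2 (0.039) and the ribosomal protein gene Rps4x (0.057), Errfi1 had Spty2d1 (0.076) and Ube2g2 (0.08), and Sgk1 had Rit2 (0.077) and Nipsnap3b (0.078). Crhr1 had Dscr3 and Rab3ip (0.084 each), Nr3c2 had Fam219a (0.053) and Tecpr1 (0.062), and Nr3c1 had Blzf1 (0.022) and Zfp651 (0.038). A small value for a level gene such as Nr3c1 says only that both were level.

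Over the 9 genes, limma called 1 higher with the KO label in the home cage (Ndrg1), where 3.57% of all tested genes were called in either direction. After exploration it called 0 of 9, where 0.597% of all genes were called. At an unadjusted p under 0.05 it had 3 of 9, against 17.2% of all genes. Exploration with the WT label gave 1 call (Hsd11b1), where 6.31% of all genes were called, and with the KO label 2 (Hsd11b1 higher and Ndrg1 lower), where 28.6% were. The difference between the exploration changes was called for 1 (Ndrg1), against 0.875% of all genes. In the comparisons averaged after the values were seen, 2 were called between the labels (Fkbp5 and Ndrg1, against 2.13%) and 3 between the environments (Hsd11b1 and Tsc22d3 higher and Ndrg1 lower, against 31.9%). These counts carry no weight for a set chosen with results known. Those of exploration with the KO label and of the averaged exploration change are near their background. The comparisons within a label and within an environment share libraries with each other.

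**Figure D4:**
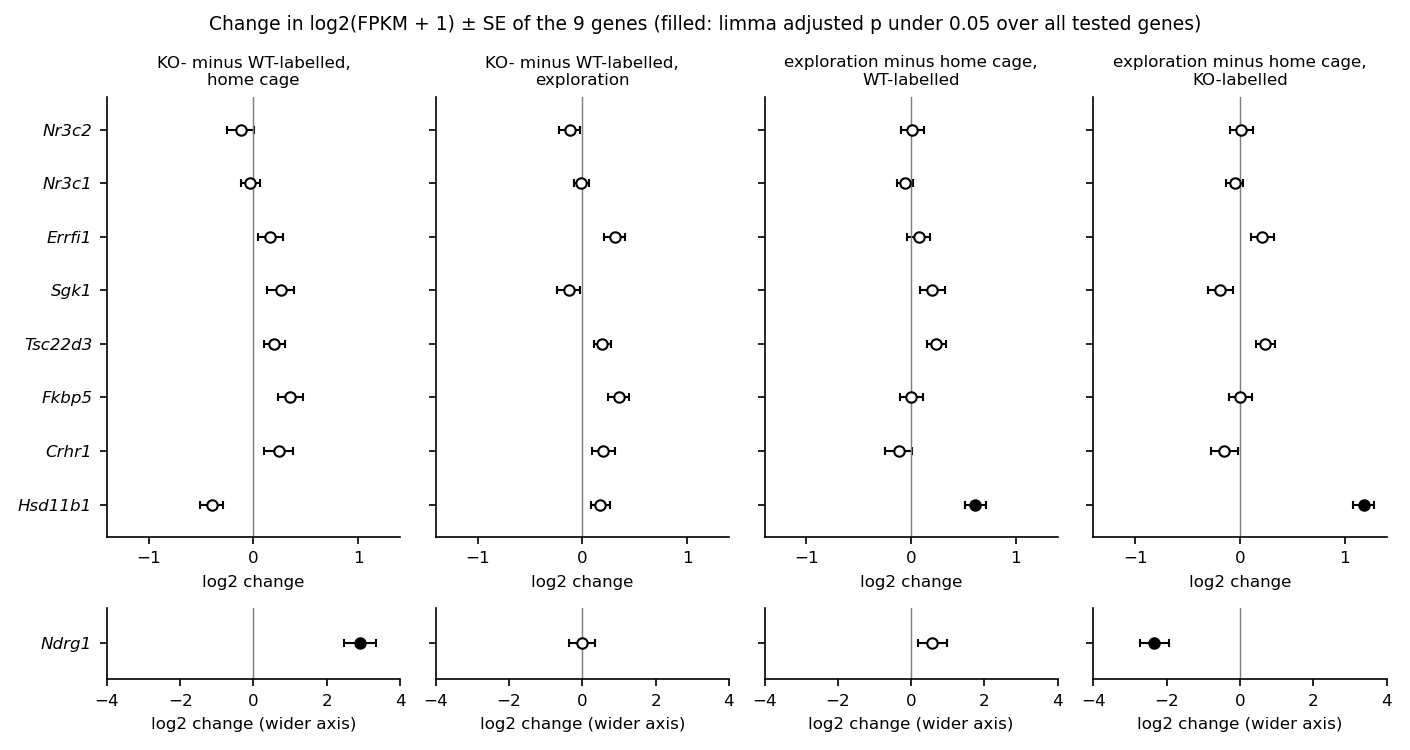
Change in log2(FPKM + 1) of the 9 genes in the 4 comparisons (points with bars for 1 SE; filled where called over all tested genes; Ndrg1 on a wider axis). Hsd11b1 is called in both exploration comparisons, Ndrg1 in the home cage and in exploration with the KO label, and Fkbp5 sits at 0.35 in both comparisons between labels and at 0 in both between environments.

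Other genes of the pathway were taken from lists written from general knowledge of it. The list of other genes that glucocorticoids induce held 31 genes, all in both blocks of the table, of which 22 passed the filter. After exploration 3 of 22 rose and 0 fell with the WT label (median log2 change 0.14, against -0.02 over all genes), and 6 rose and 3 fell with the KO label (median 0.23, against -0.04). The shares called over all tested genes, in either direction, were 6.31% with the WT label and 28.6% with the KO label. Dusp1, a MAP kinase phosphatase that glucocorticoids and neuronal activity both induce, rose by 1.20 (SE 0.19, limma adjusted p 0.0045) with the WT label and by 0.97 (SE 0.19, limma adjusted p 0.00479) with the KO label. It had 7.53 to 14.01 FPKM in the 4 home cage and 19.63 to 26.78 FPKM in the 6 exploration libraries. Arl4d, a small GTPase gene, rose by 2.12 with the KO label (SE 0.27, limma adjusted p 0.00106), from 3.01 and 2.05 FPKM to 12.53, 14.64 and 15.75 FPKM. With the WT label Arl4d had 9.93 and 4.33 FPKM in the home cage and 10.95, 10.62 and 17.24 FPKM after exploration, and was not called. Zbtb16, a zinc finger factor that glucocorticoids induce in many cells, fell by 0.79 with the KO label (SE 0.17, limma adjusted p 0.00739), so its direction went against the name of the list. Gpd1 and Mertk were the other 2 falls, named after their values were seen, and Mt2 (0.51) and Fam107a (0.44) the other 2 rises with the WT label.

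Between the labels in the home cage 3 of the 22 were higher and 1 lower with the KO label (median 0.13, against -0.02). Over all tested genes, 3.57% were called there in either direction. Fam107a, an actin-linked gene induced by stress hormones, had 27.94 and 33.89 FPKM in the WT-labelled and 45.99 and 46.42 FPKM in the KO-labelled libraries (log2 change 0.57, SE 0.12, limma adjusted p 0.0327). Cebpd, a transcription factor gene, had 18.96 and 17.84 FPKM and 11.88 and 7.03 FPKM (log2 change -0.93, SE 0.19, limma adjusted p 0.0265). It rose by 0.74 with exploration in the KO-labelled libraries (SE 0.17, limma adjusted p 0.0103). Htra1 (0.38) and Gpd1 (0.34) were the other 2 rises. Fam107a and Htra1 are abundant in astrocytes, whose marker sums were higher in the same KO-labelled libraries (124.3 and 148.9 against 83.6 and 89.7 FPKM), and the part of this was not tested. After exploration 0 of the 22 differed between labels by limma, with 5 at an unadjusted p under 0.05 (17.2% of all genes).

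**Figure D5:**
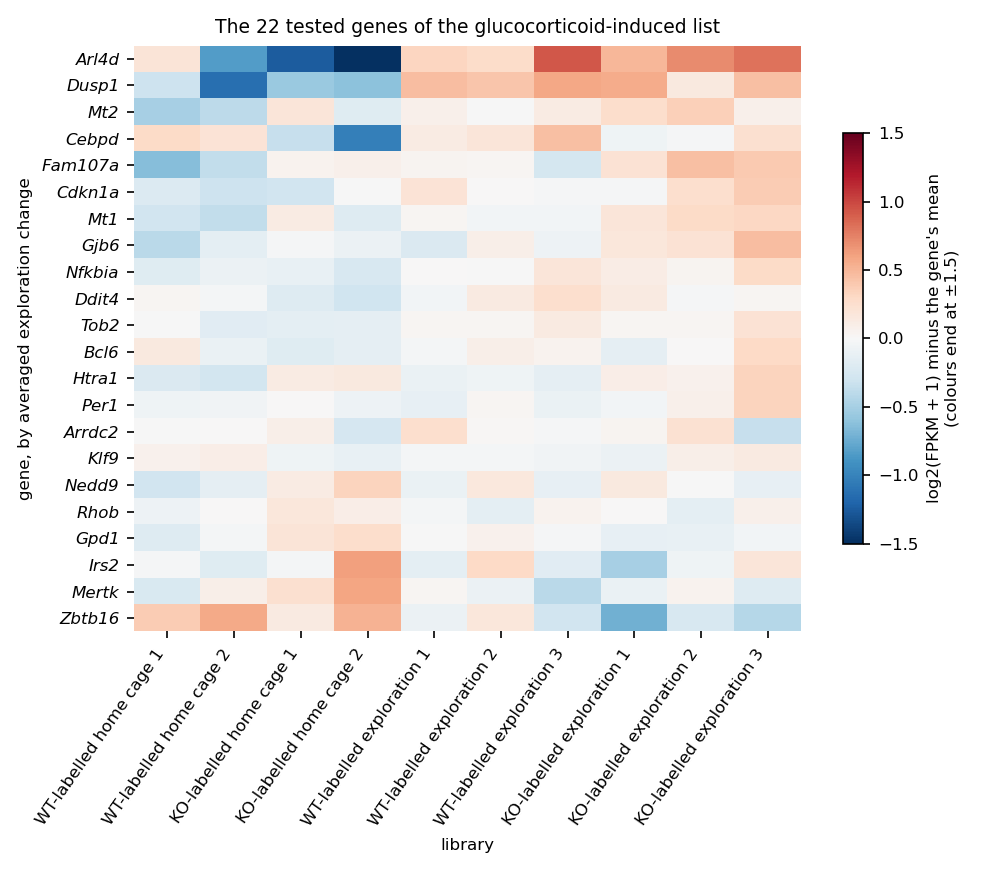
Log2(FPKM + 1) minus the gene's mean over the 10 libraries (colour, ending at ±1.5) for the 22 tested genes of the glucocorticoid-induced list, 1 column per library, ordered by the averaged exploration change. Arl4d and Dusp1 at the top are high in the 6 exploration libraries, with Arl4d nearly as high in WT-labelled home cage library 1 (9.93 FPKM). Zbtb16 at the bottom is mostly higher in the home cage. Its value in KO-labelled home cage library 1 (5.55 FPKM) lies below that in WT-labelled exploration library 2 (5.74 FPKM). Per1 and Klf9 show little difference between the environments.

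The chaperone and co-regulator list had 23 genes, all tested. With exploration 1 rose and 1 fell with the WT label, and 2 rose and 5 fell with the KO label. Of all tested genes, 6.31% and 28.6% were called in these comparisons, in either direction. Dnajb1, a co-chaperone of HSP70, rose by 0.55 (SE 0.11, limma adjusted p 0.0149) and 0.48 (SE 0.11, limma adjusted p 0.00946), from 20.65 to 30.65 FPKM in the home cage to 28.68 to 39.75 FPKM after exploration. The co-activator Ncoa3 fell by 0.73 with the WT label (SE 0.10, limma adjusted p 0.00209), from 7.82 and 8.85 FPKM to 4.74, 4.57 and 4.6 FPKM, and was lower with the KO label in the home cage (-0.45, limma adjusted p 0.0453). The acetyltransferase genes Crebbp (-0.67) and Ep300 (-0.39) and the importin gene Ipo13 (-0.44) fell with the KO label. The HSP90 genes Hsp90aa1 and Hsp90ab1 and the immunophilin gene Fkbp4 were not called in any of the 5 comparisons within labels or environments. The median of the list was 0.01 and -0.03 in the 2 exploration comparisons, against -0.02 and -0.04 over all genes.

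Of the 13 genes of the CRH system and corticosteroid supply, 10 were in both blocks of the table and 6 were tested. Limma called 0 of the 6 in every comparison, with 0 of the 6 at an unadjusted p under 0.05 between the labels and 1 of the 6 in each exploration comparison. Crh itself was at 0.39 to 1.06 FPKM, and H6pd, which supplies the cofactor of the Hsd11b1 enzyme, at 0.58 to 1.2 FPKM. Crhbp, which encodes the CRH binding protein, was at 7.4 to 17.45 FPKM.

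Among 12 family relatives of the 9 genes, 9 were tested. Ndrg2, a relative of Ndrg1 abundant in astrocytes, was higher with the KO label in the home cage, at 92.39 and 96.71 FPKM against 53.63 and 63.36 FPKM (log2 change 0.69, SE 0.15, limma adjusted p 0.0323). It rose by 0.66 with exploration in the WT-labelled libraries (SE 0.14, limma adjusted p 0.017). Astrocyte markers summed to 83.6 and 89.7 FPKM in the WT-labelled and 124.3 and 148.9 FPKM in the KO-labelled home cage libraries. In the WT-labelled exploration libraries they summed to 97.7 to 125.8 FPKM. The part of astrocyte RNA in the Ndrg2 values was not tested. Ndrg3 rose by 0.55 with exploration in the KO-labelled libraries (SE 0.09, limma adjusted p 0.00199), where Ndrg1 was lower by 2.34. Tsc22d1 rose there by 0.34. Of the 10 tested SGK1 and ERBB partners, 2 fell with exploration in the KO-labelled libraries, Foxo3 (-0.63), a transcription factor that SGK1 phosphorylates, and Rictor (-0.52), a subunit of the kinase complex that activates SGK1. Of the 10 tested hypoxia-induced genes, Higd1a rose with exploration in the WT-labelled libraries (0.33), and Bnip3 (0.66), Ankrd37 (0.48), Higd1a (0.40) and Pgk1 (0.32) rose in the KO-labelled ones. Over all tested genes, 3.57% were called between the labels in the home cage. With exploration 6.31% were called with the WT label and 28.6% with the KO label.

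Together these 6 lists gave 25 calls among 80 tested genes for exploration with the KO label, a share of 31.2% that is near the 28.6% of all tested genes. Of the 25 calls, 4 (Arl4d, Bnip3, Higd1a and Ndrg3) were also called without KO-labelled home cage library 2. With the WT label they gave 7 calls, of which Dusp1 alone was also called when home cage library 2 of that label was left out, and Dusp1 and Ncoa3 when home cage library 1 or exploration library 1 of it was. Of the 6 calls between labels in the home cage, 0 were called when home cage library 1 of the WT label or home cage library 2 of the KO label was left out, and 1 when either of the others was (Fam107a without library 2 of the WT label, Cebpd without library 1 of the KO label). Between the labels after exploration and in the difference between the exploration changes, limma called 0 of the 80, with 18 and 11 at an unadjusted p under 0.05, against 17.2% and 16.1% of all genes.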

How the data were processed

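The authors deposited FPKM values per gene and library, in 1 table with separate blocks of columns for the 6 exploration and the 4 home cage libraries. The submitters' processing notes name HISAT, StringTie, GATK, Bowtie2 and RSEM and the builds GRCm38 and mm10. The role of each tool, the use of strand and the normalization across blocks are not given in the sources used here. Without strand, antisense and overlapping genes are uncertain. The blocks were joined on gene ID.

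A gene was tested if 2 or more libraries held 1 FPKM or more (11892 genes). Log2(FPKM + 1) values were fitted by limma (3.58.1, R 4.3.3) using a variance trend, 1 mean per group over all 10 libraries (6 residual and 5.71 prior degrees of freedom). Genes were called at a Benjamini-Hochberg adjusted p under 0.05 over all tested genes. This scale understates the change of low genes. FPKM are not counts, so no count test was run. The series text counts animals, and the labels do not say which libraries share one. The genes described and all lists were chosen with earlier results of these data known. Beyond the 9 genes and Neil3, up to 4 called genes per list and comparison with the largest change were named, and the 2 most similar genes by pattern. 1 of the list genes is not reported here. The 2 averaged comparisons were added after the values were seen. Depth was estimated with GENCODE vM21 transcript lengths. Gene coordinates are those of RefSeq for GRCm38.p6. Alternatives were another pseudocount, 2 other filters, size factors, no variance trend, the compared groups alone and each library left out.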

Additional observations from a re-analysis of the deposited data

Results flagged for a closer look

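The exploration change of Ndrg1 differed between the labels by a test of the difference itself. It was 0.58 in log2 (SE 0.39) in the WT-labelled and -2.34 (SE 0.39) in the KO-labelled libraries, a difference of -2.92 (SE 0.56, limma adjusted p 0.0496 over 11892 genes). Over the fits that leave out a library the difference was between -3.40 and -2.43, and it was called in 4 of 10. It was also not called with a pseudocount of 0.1 (-3.17, limma adjusted p 0.0591), with no filter (-2.92, limma adjusted p 0.123) or with no variance trend (-2.92, limma adjusted p 0.0664). The 3 KO-labelled exploration libraries lay below both KO-labelled home cage libraries, and the WT-labelled libraries overlapped between the environments. The value rests on the 2 KO-labelled home cage libraries, and home cage and exploration values come from separate blocks of the deposited table. The part of either in the difference was not tested.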

How the results depend on the processing

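Of 981 recomputed log2 changes of the 9 genes over 63 pairs of gene and comparison, 967 moved by less than 1 residual SD, 14 by more, and 0 called changes turned their sign. Counts over all genes moved further. Between the labels, calls went in the home cage from 425 to 47 with no filter, and after exploration from 71 to 16 with no filter and 37 with no variance trend or with the compared groups alone. Averaged over the environments they went from 253 to 54 with no filter. Exploration calls went from 750 to 492 with a filter of 5 FPKM and 1710 with the compared groups alone in the WT-labelled libraries, and from 3400 to 1700 with the compared groups alone in the KO-labelled ones. The difference between the exploration changes went from 104 to 68 with a filter of 5 FPKM, and to 0 by limma with a pseudocount of 0.1, no filter or no variance trend, with 1897, 2515 and 1910 genes at an unadjusted p under 0.05. The cause was not tested.

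Leaving out 1 library gave 13 to 588 and 17 to 104 calls between the labels in the home cage and after exploration, 84 to 1004 and 505 to 3568 for exploration with the WT and KO label, 0 to 436 for the difference (1299 to 2282 at an unadjusted p under 0.05 where 0), and 28 to 319 and 1916 to 4248 for the averaged comparisons. A group left with 1 library is assumed to vary like the others. No paired analysis was possible because the labels give no numbers shared between the groups. Groups of 2 and 3 libraries and low FPKM limit precision.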
